A study of Mus musculus with 6 samples.

Results

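The microRNAs miR-144 and miR-451 lie next to each other on chromosome 11, and miR-144/451 knockout (KO) mice lack the genomic segment that holds both precursors. The genes described here are the neighbours of that segment. A gene was a member if its start, the lower of its coordinates on GRCm38 (GENCODE), lay from 76073000 to 80073000 on chromosome 11, 2 Mb to either side of the microRNAs. It also needed a mean of at least 10 counts over the 6 libraries, and ribosomal protein symbols beginning with Rpl or Rps were left out. This gave 56 of the 44678 genes in the count files, of which 55 were protein-coding and 1, Dhrs13os, was an antisense RNA. Of the 135 genes that start in the window, 78 were below the mean of 10 counts (51 of them had 0 counts in all libraries) and 1, Rpl23a, was left out by its symbol. The member with the lowest mean was Sarm1 at 13.8 counts, and the excluded gene with the highest mean was Gm26563 at 9.0. At the edges, Glod4 (start 76120987) and Crlf3 (start 80046493) were inside, while Vps53 (start 76046226) and Atad5 (start 80089400) were outside.

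RNA was sequenced from CD8a+ leukocytes of the spleen in 3 libraries of wild-type (WT) mice and 3 libraries of KO mice, with no treatment in either group. Both groups were young adult animals on a C57BL/6J background. The KO is germline, so every cell type lacks the microRNAs, and the WT mice are described as C57BL/6J animals of a university colony rather than as littermates. CD8a+ cells were taken with magnetic beads against Ly-2, a bead enrichment that can carry other leukocytes. Each library held between 8143971 (WT replicate 3) and 8876570 (WT replicate 2) counts. The labels do not say whether each library was 1 mouse, so p-values measure the spread between these libraries.

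The miR-144/451 cluster is transcribed as one primary RNA and is best known from erythroid cells, where both microRNAs accumulate as red cells mature. miR-144 is cut by Drosha and Dicer, whereas miR-451 bypasses Dicer and is cut by Ago2. A microRNA pairs mainly through its seed, bases 2 to 8 of the mature strand, with sites in the 3' untranslated region (UTR) of target mRNAs and lowers their level or translation. The genes around a deleted segment are a usual check in a knockout model, because a neighbour with an altered level would be a further difference between WT and KO besides the microRNAs.

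The deleted microRNAs are shown first, because every distance below is measured from them. The locus spans 237 bp, from 78073005 to 78073241 of chromosome 11. Mir144 (chr11:78073005-78073070) and Mir451a (chr11:78073170-78073241) are on the plus strand, and Mir451b is annotated on the minus strand at the coordinates of Mir451a. The hairpins, from RefSeq on GRCm38.p6, are written 5' to 3' with the mature strands in capitals.
Mir144: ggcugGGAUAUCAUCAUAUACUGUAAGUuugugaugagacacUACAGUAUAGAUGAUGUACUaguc
Mir451a: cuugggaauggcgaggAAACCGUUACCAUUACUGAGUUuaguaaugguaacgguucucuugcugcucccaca
The mature strands follow with the seed in capitals, since the seeds were searched for in the neighbouring genes.
mmu-miR-144-5p: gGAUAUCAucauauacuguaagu
mmu-miR-144-3p: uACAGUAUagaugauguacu
mmu-miR-451a: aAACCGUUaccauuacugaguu
mmu-miR-451b: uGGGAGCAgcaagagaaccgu
No seed is shared among the 4 strands. Mir144, Mir451a and Mir451b had 0 counts in all 6 libraries, WT included. These mRNA libraries therefore give no check of the deletion itself.

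Before the comparison, the cell type label was checked with marker genes, each list as the sum of its CPM (counts scaled to the normalised library size). The 6 T cell markers, Cd8a and Cd3e among them, summed to 2520 to 3430 CPM in WT and 1740 to 3280 CPM in KO. The 6 B cell markers summed to 1190 to 2080 CPM in WT and 1040 to 2430 CPM in KO, and no defining marker of any list was at 0 in all libraries. WT replicate 1, KO replicate 1 and KO replicate 2 had the 3 highest B cell sums (2080, 2160 and 2430 CPM), the 3 highest monocyte sums (1720, 1730 and 1880 CPM) and the 3 highest neutrophil sums (561, 592 and 678 CPM). The same 3 libraries had the 3 lowest T cell sums (2520, 2300 and 1740 CPM). The sums of the 6 dendritic cell markers did not overlap between the groups (188 to 205 CPM in WT, 229 to 255 CPM in KO), and all 6 markers had a higher estimate in KO. At an unadjusted p under 0.05, where 6.25% of all tested genes lay, were 3 dendritic cell and 2 monocyte markers and none of the other lists, and 0 markers of any list passed adjustment. Estimates were higher in KO for 6 of 6 B cell, 5 of 6 monocyte, 3 of 3 neutrophil and 7 of 7 erythroid markers, and for 0 of 6 T cell markers. Higher estimates were also seen for 1 of 4 plasmacytoid dendritic cell and 2 of 3 NK cell markers. The plasmacytoid dendritic cell sum was 213 to 220 CPM in WT and 203 to 218 CPM in KO, and the NK cell sum was 107 to 114 CPM in WT and 100 to 135 CPM in KO. The erythroid sum ranged from 237 to 800 CPM in WT and from 429 to 2580 CPM in KO. In such bulk samples, fewer cells of a type and less RNA per cell cannot be told apart.

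No neighbour of the locus changed past the threshold in KO cells. Of the 56 genes, 0 had an adjusted p under 0.05 by edgeR (quasi-likelihood fit; Benjamini-Hochberg over the 13024 genes tested), and the lowest adjusted p was 0.683, of Taok1. By the same rule 4 of all tested genes were called (0.0307%), and 0 of 56 beside that share is no result about the members as a list. At an unadjusted p under 0.05 there were 2 members (3.57%), Taok1 and Abr, against 814 of all genes (6.25%). Both were higher in KO, a direction that 4.14% of all genes took at this p. With DESeq2 the count of members past adjustment was again 0.

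The changes were also small. The members split into 29 with a higher and 27 with a lower estimate in KO, and their median log2 fold change (KO against WT) was 0.022, beside 0.003 over all tested genes. The median size of the change regardless of direction was 0.099 on the log2 scale for the members, 0.131 for all tested genes and 0.131 for the 1010 tested genes of chromosome 11 outside the window. The estimates ran from -0.50 (Fam57a) to 0.80 (Sarm1). The members were measured about as precisely as other genes, with a median standard error (SE) of 0.147 against 0.158 and a median log2 CPM of 4.72 against 4.77.

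The intervals say how large a change these libraries could have missed. For 53 of the 56 genes (94.6%) the 95% interval of the fold change lay within 2-fold in both directions, beside 77.5% of all tested genes. The exceptions were Sarm1, Gemin4 and Fam57a. For 38 genes (67.9%) the interval lay within 1.5-fold, beside 56.3% of all genes. These intervals are per gene and are not adjusted.

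**Figure D1:**
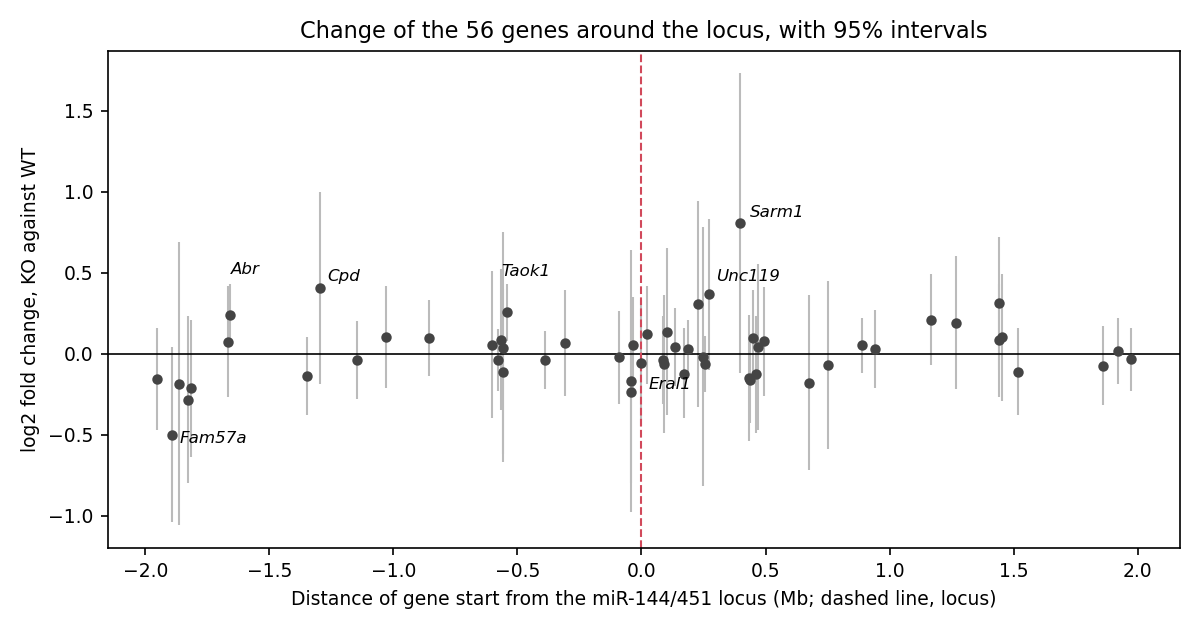
The log2 fold change of each of the 56 genes (y axis; points are estimates, vertical bars 95% intervals, 3 WT and 3 KO libraries) against the distance of the gene start from the locus in Mb (x axis). Only Taok1 and Abr have intervals that leave out 0, and the 10 genes nearest to the dashed line, Eral1 first, lie between -0.24 and 0.14.

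The 10 nearest genes showed no call. Their estimates were higher in KO for 4 and lower for 6, with a median of -0.033 and a median size of 0.064 on the log2 scale, 0 had an unadjusted p under 0.05, and all 10 intervals lay within 2-fold. In none did the WT and KO libraries fail to overlap. Beside the 6.25% and 11.5% of all tested genes that met these rules, 0 of 10 is no result about the nearest genes.

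Eral1, a GTPase needed to assemble the small subunit of the mitochondrial ribosome, is the nearest gene (ENSMUSG00000020832, chr11:78073376-78080383, minus strand). It lies 135 bp past Mir451a, so its 3' end faces the locus. How close the deleted segment comes to this end was not analysed here. Eral1 stood at 21.7, 22.1 and 27.1 CPM in the 3 WT libraries and at 26.2, 18 and 23.7 CPM in the 3 KO libraries. The lowest and the second highest value were both KO, and the groups overlapped over most of their range. The log2 fold change was -0.06 (SE 0.17, 95% interval -0.45 to 0.33, adjusted p = 0.953 by edgeR), and a two-sided exact permutation test over the 6 libraries gave p = 0.8, where 0.1 is the smallest p that 3 against 3 allows. Its sign turned to 0.08 when a score of B cell, monocyte and dendritic cell markers was added to the fit. The annotation holds no other gene between Mir451a and Eral1.

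On the other side of Eral1 come Fam222b, at 21.4 kb, and Traf4, an adaptor of the TRAF family, at 85.3 kb. Fam222b stood at 19.2, 19.1 and 17.2 CPM in WT and at 20.4, 21.5 and 18.3 CPM in KO, a log2 fold change of 0.12 (95% interval -0.19 to 0.42). Traf4 stood at 43.4, 50.7 and 56 CPM in WT and at 44.5, 49.3 and 51.8 CPM in KO, with the KO values inside the WT range. Nek8, a kinase of the primary cilium, had KO values of 15.4, 10.7 and 14.2 CPM around WT values of 12.7, 14.9 and 14.6 CPM. Supt6, a histone chaperone that travels with RNA polymerase II, was the most highly counted of the nearest genes, at 180, 210 and 231 CPM in WT and 221, 204 and 213 CPM in KO. Its 95% interval of -0.20 to 0.28 was the narrowest of the 10. Tlcd1 was low, at 5.59 to 8.10 CPM in WT and 6.50 to 7.99 CPM in KO. Tlcd1 shares 506 exon bases with Rpl23a, a gene with a mean of 11354 counts, on the opposite strand. Whether the counting used strand is not known, so the level of Tlcd1 may hold reads of Rpl23a.

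Below the locus the first gene is Flot2, a flotillin that scaffolds membrane rafts, at 35.1 kb. Flot2 stood at 37.9, 36.6 and 40.5 CPM in WT and at 44.8, 41.4 and 32.9 CPM in KO, so the KO libraries held both the highest and the lowest value. Phf12, a PHD finger protein of a Sin3 corepressor complex, stood at 143, 190 and 192 CPM in WT and at 168, 184 and 164 CPM in KO. Between them lie Dhrs13, a short-chain dehydrogenase/reductase, and its antisense RNA Dhrs13os. Dhrs13os had the most negative estimate of the 10 nearest, -0.24 (95% interval -0.80 to 0.33), at 5.48, 5.48 and 4.47 CPM in WT and 4.05, 5.05 and 4.01 CPM in KO. Dhrs13 stood at 2.62, 2.74 and 3.23 CPM in WT and 2.20, 3.61 and 1.83 CPM in KO. Dhrs13os shares 386 exon bases with Dhrs13 and 528 with Phf12 on the opposite strand, and whether the counting used strand is not given in the sources used here, so the 3 levels may hold reads of each other.

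**Figure D2:**
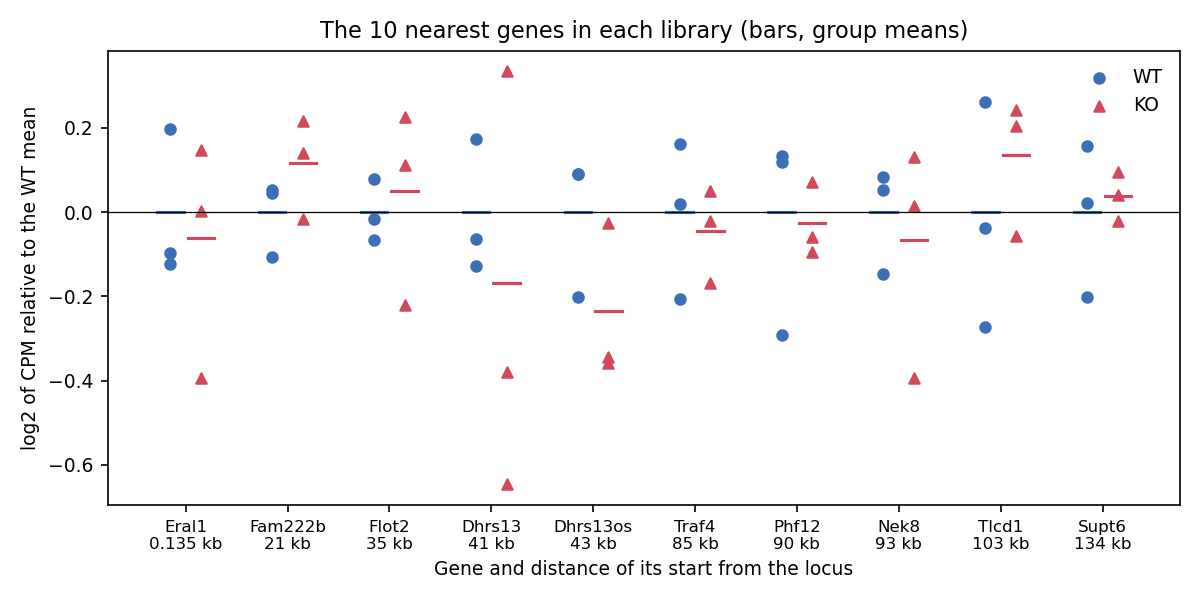
Each library's CPM of the 10 nearest genes as log2 relative to the WT mean (y axis; blue circles WT, red triangles KO, short bars the log2 of each group's mean CPM), with genes ordered by the distance of their start from the locus (x axis). The WT and KO points overlap for all 10 genes.

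The size of the change was then read against distance. The 14 members that start within 0.25 Mb had a median size of 0.064 on the log2 scale, the 11 from 0.25 to 0.5 Mb 0.097, the 11 from 0.5 to 1 Mb 0.072 and the 20 from 1 to 2 Mb 0.148. The nearest bin had the smallest median and the farthest bin the largest, but the middle bins were not in order and all except the last held under 20 genes, so no trend is read from them. The 24 genes below the locus (11 higher, 13 lower in KO) had a median log2 fold change of -0.03, and the 32 above it (18 higher, 14 lower) 0.029. Both members under an unadjusted p of 0.05 lay below the locus.

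The 97 tested chromosome 11 genes starting 2 to 6 Mb from the locus had a median size of 0.208, beside 0.131 over all tested. Of the 97, 18 (18.6%) had an unadjusted p under 0.05, beside 6.25% of all tested genes. Of these, 3 passed after adjustment: Slfn9 at 4.91 Mb, Slfn8 at 4.93 Mb and Xaf1 at 5.77 Mb. Over all 13024 tested genes 4 passed. The difference between the window and this flank was not tested. The genes called on chromosome 11 thus all lay more than 2 Mb away.

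**Figure D3:**
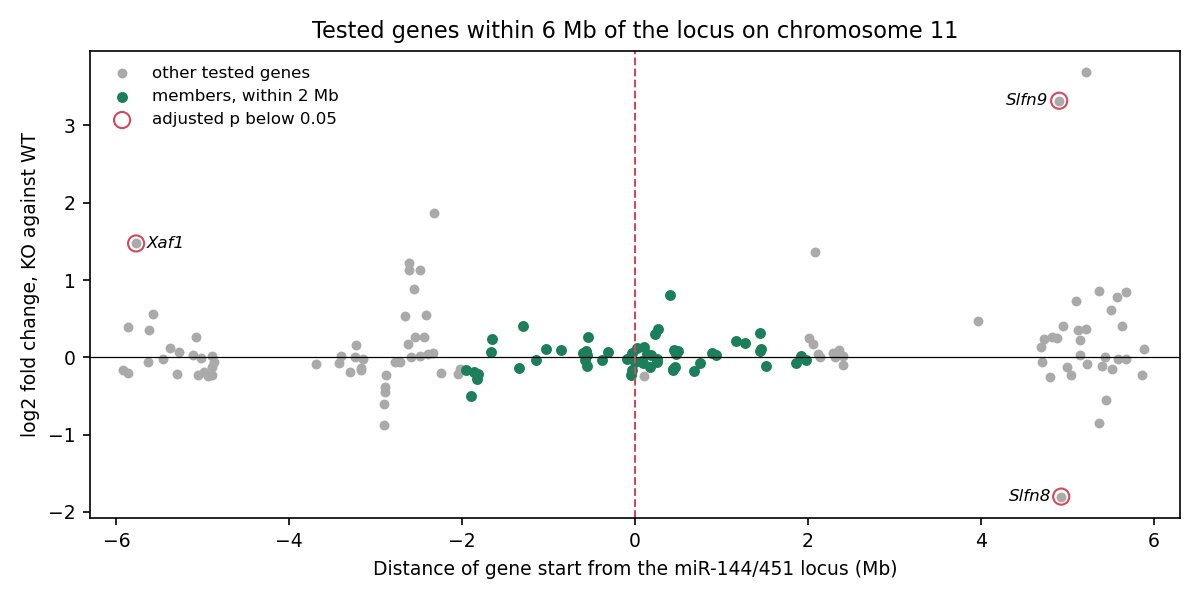
The log2 fold change (y axis) of all tested genes that start within 6 Mb of the locus on chromosome 11 (x axis, Mb); the members are green, other genes grey, and red circles mark an adjusted p under 0.05. The members stay between -0.50 and 0.80, while the 3 circled genes lie beyond 4.9 Mb; the grey point inside the window is Rpl23a.

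Taok1 had the lowest p of the 56 genes. It encodes a kinase upstream of the p38 stress pathway that also acts on microtubules, and it starts 544 kb below the locus (chr11:77529162-77607815, minus strand). Taok1 stood at 151, 159 and 149 CPM in WT and at 180, 191 and 178 CPM in KO. Every KO library was above every WT library. The log2 fold change was 0.26 (SE 0.08, 95% interval 0.08 to 0.43), with an unadjusted p of 0.00968 and an adjusted p of 0.683 by edgeR, so it did not pass. Its unadjusted p stayed under 0.05 in all alternatives run.

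Abr starts 1660 kb below the locus (chr11:76416734-76622314, minus strand). Abr stood at 141, 136 and 153 CPM in WT and at 161, 173 and 176 CPM in KO, again without overlap. The log2 fold change was 0.24 (SE 0.08, 95% interval 0.05 to 0.43), with an unadjusted p of 0.0196 and an adjusted p of 0.729 by edgeR. Its unadjusted p was no longer under 0.05 without WT replicate 2, KO replicate 2 or KO replicate 3. The log2 fold change of Abr in these fits was 0.20, 0.23 and 0.19.

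In all, the WT and KO libraries did not overlap for 4 members (7.14%), beside 11.5% of all tested genes. Besides Taok1 and Abr these were Sarm1 and Mrm3, and the difference of means was larger than the larger SD for 8 members (14.3%), beside 24.0% of all genes. Sarm1, an NAD+-cleaving TIR domain protein, is named here after its values were seen. It had 13, 6 and 11 counts in WT and 15, 18 and 20 counts in KO, and its log2 fold change of 0.80 had the wide interval of -0.12 to 1.73 (adjusted p = 0.816 by edgeR). Mrm3, a methyltransferase of mitochondrial ribosomal RNA, stood at 7.42, 6.85 and 6.20 CPM in WT and at 6.02, 4.57 and 6.18 CPM in KO, with the lowest WT and the highest KO value almost equal.

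For Cpd, Unc119 and Fam57a the high and the low values followed the same 3 libraries in both groups. Cpd, the membrane carboxypeptidase D of the trans-Golgi network, stood at 24.1, 15.6 and 15.5 CPM in WT and at 27.4, 29.2 and 16.6 CPM in KO. Unc119, a lipid-binding trafficking factor that also activates Lck in T cells, stood at 28.6, 24.5 and 22.1 CPM in WT and at 34.4, 39.6 and 23.1 CPM in KO. For both genes WT replicate 1, KO replicate 1 and KO replicate 2 were the 3 highest, the libraries with the highest B cell, monocyte and neutrophil marker sums. Fam57a went the other way, at 14.3, 17.5 and 15.4 CPM in WT and 9.96, 8.30 and 15 CPM in KO, with its 3 lowest values in those same 3 libraries.

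The log2 fold changes were 0.41 for Cpd (95% interval -0.19 to 1.0), 0.37 for Unc119 (-0.10 to 0.83) and -0.50 for Fam57a (-1.04 to 0.04), with adjusted p of 0.819, 0.816 and 0.807 by edgeR. A marker score, the mean of the standardised log2 CPM of the 18 B cell, monocyte and dendritic cell markers, was 0.158, -0.724 and -0.561 in WT and 0.576, 0.802 and -0.252 in KO. With this score in the fit as a covariate, the fold changes became -0.19, -0.08 and -0.11. The score holds the dendritic cell markers, whose sums did not overlap between WT and KO. A shift under this fit therefore cannot be told apart from taking out part of the difference between the genotypes. With the same covariate Taok1 stayed at 0.24 and Abr at 0.27. Under this fit 4 members had an unadjusted p under 0.05, Taok1, Abr, Nlk and Sdf2, beside 7.75% of all tested genes, and 0 members passed adjustment. Without KO replicate 3, the KO library with low B cell markers, 7 members had an unadjusted p under 0.05 (Ccnq, Cpd, Fam57a, Gosr1, Taok1, Unc119 and Wsb1) and so had 14.1% of all genes, with 0 members past adjustment.

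**Figure D4:**
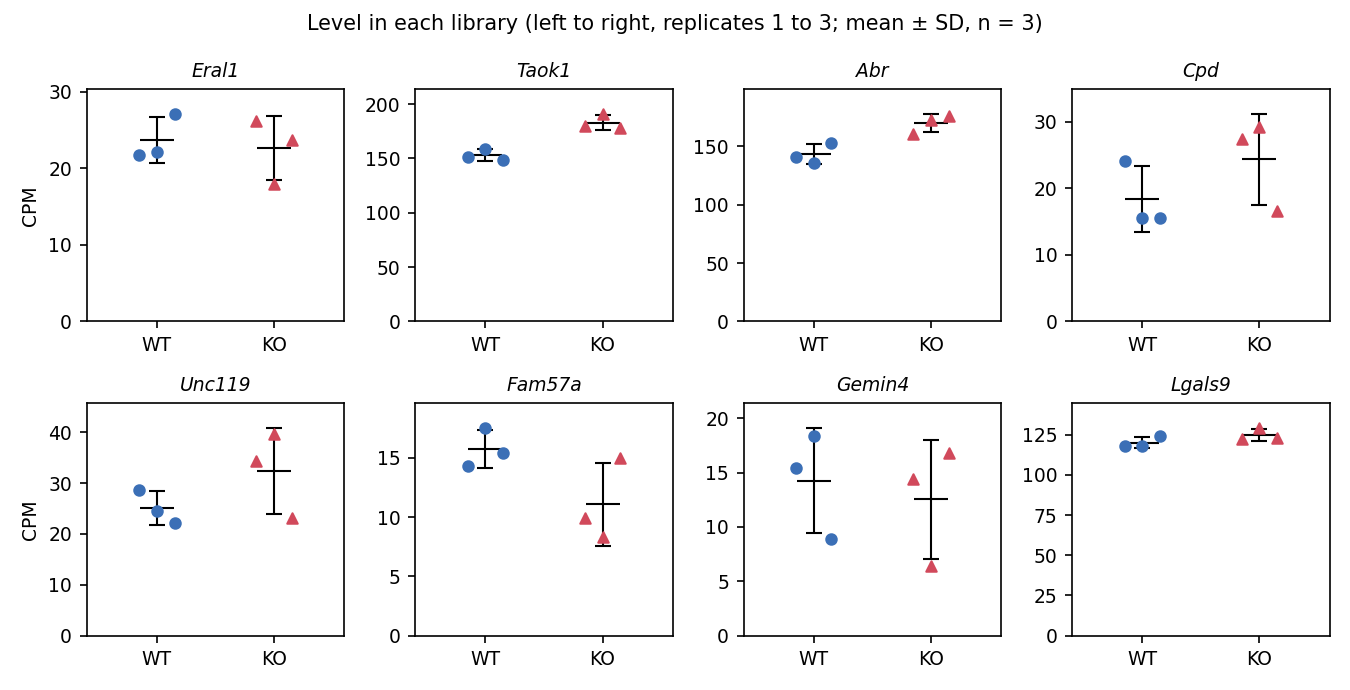
CPM of 8 members in each library (y axis from 0; blue circles WT, red triangles KO, replicates 1 to 3 from left to right in each group; horizontal bar and whiskers, mean ± SD, n = 3). Taok1 and Abr separate the groups, while Cpd and Unc119 are high and Fam57a is low in WT replicate 1, KO replicate 1 and KO replicate 2.

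**Figure D5:**
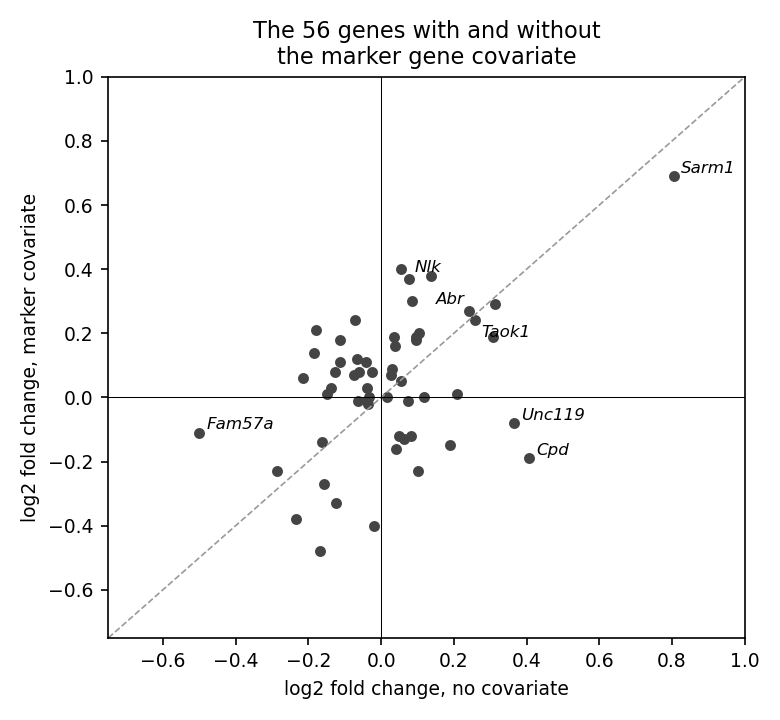
The log2 fold change of the 56 genes without (x axis) and with (y axis) the marker gene covariate; the dashed line marks equal values. Taok1, Abr and Sarm1 lie near the line, while Cpd and Unc119 move from 0.41 and 0.37 to -0.19 and -0.08.

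The members were also read by role. The lists were written from general knowledge of the region, with earlier results of these data known. In each of them 0 members passed adjustment. They hold 45 of the 56 genes. Of all tested genes 50.6% had a higher estimate in KO, and the counts of each list stand beside that share.

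The signaling list had 14 members out of 15, 11 higher and 3 lower in KO, with a median log2 fold change of 0.096, and it held both genes under an unadjusted p of 0.05 (14.3%, beside 6.25% of all tested genes). Its highest gene per kb of exon was Lgals9, the secreted lectin galectin-9, at 57.3 CPM per kb. Lgals9 stood at 118, 118 and 124 CPM in WT and at 122, 129 and 123 CPM in KO, a log2 fold change of 0.05 with the narrow interval of -0.12 to 0.22. Crlf3, at 57.1 CPM per kb, stood at 235, 238 and 265 CPM in WT and 235, 244 and 243 CPM in KO, with overlapping groups. The Ras regulator Nf1 (0.19, interval -0.22 to 0.60), the Raf-MEK scaffold Ksr1 (0.03, interval -0.21 to 0.27) and the cofilin phosphatase Ssh2 (0.10, interval -0.14 to 0.33) had intervals that include 0, and Nf1 was at -0.15 with the marker covariate and at 0.36 without WT replicate 1.

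The trafficking and membrane list had 13 members out of 16, 6 higher and 7 lower, with a median of -0.039 and all 13 intervals within 2-fold. Evi2b, a membrane protein of blood cells, had the highest level of all 56 genes at 70.5 CPM per kb, where the median member was at 7.26 and the lowest, Sarm1, at 0.288. Evi2b stood at 151, 133 and 97.8 CPM in WT and at 141, 140 and 124 CPM in KO. The overlapping gene Evi2 had an estimate of 0.31 (interval -0.10 to 0.72), but 98.55% of the exon bases of Evi2b lie in Evi2 on the same strand, so reads of both could be split. Counted as 1 gene, Evi2, Evi2a and Evi2b gave 0.11 (SE 0.14, adjusted p = 0.894 by edgeR).

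The RNA, ribosome and mitochondria list had 9 members out of 10, 3 higher and 6 lower, with a median of -0.06. Besides Eral1, Supt6 and Mrm3 it held Gemin4, a subunit of the SMN complex that assembles spliceosomal particles. Gemin4 stood at 15.4, 18.4 and 8.93 CPM in WT and 14.4, 6.38 and 16.8 CPM in KO, a spread within each group larger than the difference of -0.19 (interval -1.06 to 0.69). Glod4 covers 89.8% of its exon bases on the same strand, and the counts of Gemin4 were fractional in WT replicate 3 (72.484) and KO replicate 2 (52.532), its 2 lowest libraries. Fam57a covers 77.0% of Gemin4 on the opposite strand. The sum of Glod4, Gemin4 and Fam57a was 494, 495 and 373 counts in WT and 386, 294 and 462 counts in KO, a log2 fold change of -0.26 (SE 0.16, adjusted p = 0.817 by edgeR). Timm22, a translocase of the inner mitochondrial membrane, was at 0.07 (interval -0.27 to 0.42).

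The enzymes and transporters list had 6 members out of 11, and all 6 estimates were lower in KO, with a median of -0.136. None had an unadjusted p under 0.05, and the signs were not stable, since the marker covariate gave 0.06 for Nxn and 0.18 for Abhd15, and Aldoc was at 0.30 without WT replicate 1. Nxn, the redox enzyme nucleoredoxin, had the largest of these, -0.22 (interval -0.64 to 0.21), at 12.4, 16 and 18.4 CPM in WT and 13.1, 12.3 and 14.9 CPM in KO. Blmh, a cysteine protease of the bleomycin hydrolase family, had the highest level per kb, at 52.9, 46.3 and 47.6 CPM in WT and 47.2, 43.4 and 52.4 CPM in KO. Abhd15, Aldoc, Dhrs13 and Glod4 made up the rest.

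The chromatin and transcription list had 3 members out of 6, Suz12, Phf12 and Spag5. Coprs, also in this list, lies on chromosome 8 and so could not be a member. Suz12, a core subunit of Polycomb repressive complex 2, stood at 140, 142 and 119 CPM in WT and 139, 132 and 135 CPM in KO, with a log2 fold change of 0.02 (interval -0.19 to 0.22). Spag5 was placed in this list although its product is a protein of the mitotic spindle. It stood at 12.6, 11.2 and 7.45 CPM in WT and 8.91, 16 and 13.7 CPM in KO. Its estimate was 0.31 with an interval of -0.33 to 0.94. The 11 members of no list had 7 higher and 4 lower estimates and a median of 0.036.

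Last, the 3' UTRs of the members were searched for 7-base matches to the seeds, written as DNA on the strand of the mRNA. A 3' UTR was annotated for 55 members and 11558 tested genes. The match to miR-144-3p, ATACTGT, was in 7 members (12.7%, against 15.4% of tested genes), and their median log2 fold change was 0.074, against -0.002 for members without it. The match to miR-144-5p, TGATATC, was in 6 (10.9%, against 7.22%), with medians of -0.053 and 0.03. The match to miR-451a, AACGGTT, was in 0 members, and in 2.58% of tested genes. A match is a description of the sequence and not a shown site.

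The match to miR-451b, TGCTCCC, was in 5 members (9.09%, against 16.2% of tested genes): Abr, Glod4, Gosr1, Ssh2 and Taok1. It was seen after the values were known that both members under an unadjusted p of 0.05 are among these 5, while Glod4 and Gosr1 had estimates of -0.16 and -0.14. Of all tested genes with this match, 118 (6.29%) had an unadjusted p under 0.05. The median log2 fold change of the 5 members was 0.095, against 0.022 for members without the match. Estimates were higher in KO for 3 of the 5 members with the miR-451b match and for 5 of the 7 with the miR-144-3p match. The others with the miR-144-3p match were Dhrs13 (-0.17) and Lyrm9 (-0.07). The sites of 3 genes, chosen by their values, are written with the match in capitals. Taok1 and Abr (miR-451b) were taken for their unadjusted p. Cpd was taken for the most positive estimate among members with a miR-144-3p match, which became -0.19 with the marker covariate. The sequences are on GRCm38 and the strand of the gene, minus in all 3 cases. Their positions are chr11:77536326-77536332 (Taok1), chr11:76418670-76418676 (Abr) and chr11:76781124-76781130 (Cpd).
Taok1, miR-451b: tattgtccTGCTCCCttttcagt
Abr, miR-451b: cctggcccTGCTCCCagattgca
Cpd, miR-144-3p: gtgatggcATACTGTcatggaga
No member with a match to either strand of miR-144 had an unadjusted p under 0.05, beside 5.46% of all tested genes with the miR-144-3p match and 5.88% with the miR-144-5p match. Over all tested genes the medians with and without a match were 0.026 and -0.003 for miR-144-3p, 0.037 and -0.001 for miR-144-5p, 0.036 and 0.002 for miR-451a, and 0.018 and -0.001 for miR-451b.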

How the data were processed

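RNA of spleen CD8a+ cells (3 WT, 3 KO) was made into libraries with a SMARTer mRNA-seq kit. The values the authors deposited are expected counts by Ensembl ID, unscaled and in places fractional. The submitters' processing notes name the builds GRCm38 and mm10. The aligner, the counter, its annotation and its use of strand are not given in the sources used here. Positions came from GENCODE M21 (44121 IDs matched) and microRNA sequences from RefSeq.

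Counts were rounded, filtered (filterByExpr, minimum count 10, minimum total 15), scaled by TMM and tested with edgeR 4.0.16 (quasi-likelihood, KO against WT, Benjamini-Hochberg over 13024 genes) in R 4.3.3. DESeq2 1.42.0 was an alternative. The script was tested on simulated counts. In a library, 3 counts equalled 0.338 to 0.368 CPM. Intervals cover the spread between libraries.

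Members and lists were chosen with earlier results of these data known. The genes named were the 10 nearest, those at unadjusted p under 0.05, the 5 largest rises and falls with log2 CPM of at least 1, and the highest per kb overall (3) and per role list. Sarm1, Nf1, Ksr1, Ssh2, Suz12, Timm22, Glod4 and the genes listed under an alternative were added after the values were seen.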

Additional observations from a re-analysis of the deposited data

How the results depend on the processing

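The members past adjustment were 0 under all 12 alternatives run (DESeq2, upper-quartile scaling, no filter, a minimum mean count of 10, the marker covariate, the replicate block and leaving out each library). With the marker covariate, 4 members had an unadjusted p under 0.05 (7.75% of all genes did), the median size was 0.136, and the estimates took the other sign for 25 of the 56 members, among the genes named by rule Eral1 (0.08), Flot2 (-0.12), Traf4 (0.11), Phf12 (0.08), Nek8 (0.12), Unc119 (-0.08), Cpd (-0.19), Nxn (0.06), Gemin4 (0.14) and Evi2b (-0.12); the cause was not tested. Leaving out 1 library in turn gave 1 (without WT replicate 2) to 7 (without KO replicate 3) members at an unadjusted p under 0.05, where 3.51% and 14.1% of all genes lay, a median size of 0.072 to 0.141 and a median log2 fold change of -0.033 to 0.038. It moved Eral1 over -0.19 to 0.08, Supt6 over -0.05 to 0.11, Blmh over -0.13 to 0.03, Phf12 over -0.15 to 0.04, Gemin4 over -0.48 to 0.13, Traf4 over -0.14 to 0.03, Crlf3 over -0.07 to 0.01, Evi2b over -0.09 to 0.22, Flot2 over -0.06 to 0.15 and Nek8 over -0.19 to 0.07, with adjusted p of 0.581 or more for these 10. Without turning the sign, it moved Fam222b over 0.05 (without WT replicate 3) to 0.16 (without KO replicate 3), Evi2 over 0.11 (without KO replicate 1) to 0.45 (without KO replicate 2), Nxn over -0.36 (without WT replicate 1) to -0.10 (without WT replicate 3), Mrm3 over -0.38 to -0.16 (without KO replicates 3 and 2), Dhrs13 over -0.50 to 0.00 (without KO replicates 2 and 3), Dhrs13os over -0.35 (without KO replicate 2) to -0.19 (without WT replicate 1 or 2), Tlcd1 over 0.01 to 0.29 (without WT replicates 1 and 2), Cpd over 0.26 (without KO replicate 2) to 0.65 (without WT replicate 1), Unc119 over 0.20 (without KO replicate 2) to 0.54 (without KO replicate 3), Fam57a over -0.80 (without KO replicate 3) to -0.33 (without KO replicate 2) and Spag5 over 0.10 (without WT replicate 3) to 0.50 (without KO replicate 1). Measuring distance from the transcription start or the gene body instead of the lower coordinate moved the median size of the 0.25 to 0.5 Mb bin from 0.097 to 0.126 and 0.126. Over all genes, 4 were called by edgeR, 56 by DESeq2, 12 without a filter, 12 with the covariate, 9 with the replicate block and 94 without KO replicate 3.

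With the replicate block, 2 members had an unadjusted p under 0.05 (5.26% of all genes did), the median log2 fold change was 0.025 and Eral1 was at -0.07. The pairs with the same number deviated with correlations of -0.0101, -0.1989 and 0.1114. Pairs with unlike numbers ran from -0.2648 (WT replicate 1 with KO replicate 3) to 0.2932 (WT replicate 1 with KO replicate 2). Whether libraries of the same number share a batch was not tested. Summing overlapping members was added after seeing the data. Of 292 recomputed values of named members, 25 took the other sign, in 13 of the 24 members. By CPM, not scaled to exon length, the lowest members, and so those with the least depth, were Sarm1, Dhrs13, Aldoc and Gm10392.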
